A study of Mus musculus with 20 samples.

Results

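In 20 RNA immunoprecipitation sequencing (RIP-Seq) libraries of mouse embryonic stem cells (ESCs), each listing 23284 genes, 10 genes of the two-cell-like state were followed. They were 5 genes related to the initiation factor gene Eif1a (Gm4027, Gm8300, BB287469, Gm2022 and Gm5662), 3 Zscan4 genes (Zscan4c, Zscan4d and Zscan4f) and 2 Tcstv genes (Tcstv1 and Tcstv3). They were chosen by name as multicopy genes of the cleavage-stage embryo, with Gm4027 singled out for its high ratio of IP over input in the Tet1 line. The Tet1 ratios are therefore given as a description, with no test.

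The libraries came from 3 knock-in ESC lines in which the endogenous protein carried a C-terminal tag that includes Flag: Tet1-KI (2 replicates), Tet2-KI (4 replicates) and a Tet2 knock-in without its RNA-binding domain (Tet2ΔRBD, 4 replicates). Each replicate gave RNA recovered with anti-Flag antibody (IP) and RNA that was not immunoprecipitated (input). All cells were wild type apart from the edited allele and grew on gelatin with serum and leukemia inhibitory factor. The study compared IP with input to find RNAs bound by each protein, and the domain deletion to find those that need the domain. The lines were made from picked clones, so that a difference between lines and a difference between clones cannot be told apart. Replicates 3 and 4 of Tet2 and Tet2ΔRBD and both Tet1 replicates share 1 number in the deposited data, which is called a library set here and is not explained in the labels. In the study's methods the IP started from cytoplasmic extract and the input was total RNA, and the part of this in any ratio was not tested.

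ESC cultures hold a small, shifting population of cells that switch on genes otherwise expressed when the mouse embryo has just divided for the first time. The transcription factor Dux starts this program, and Dppa2 and Dppa4 act upstream of Dux. Zscan4 proteins carry a SCAN domain and zinc fingers and are known for telomere maintenance in ESCs, where they appear in bursts. The Tcstv genes take their name from their transcription at the cleavage stage. The Eif1a-like genes are copies related to the gene of initiation factor eIF1A, which helps the small ribosomal subunit to scan for a start codon. In a bulk library, fewer cells in this state and less of these RNAs per cell cannot be told apart.

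All 3 families are made of near-identical copies, so the sequences are shown first. The gencode annotation of mm9, the build used by the authors, held models for 7 of the 10 genes. Gm4027 lies at chr12:88959859-88963093 and BB287469 at chr12:89055025-89059124, both on the plus strand. Gm8300 lies at chr12:88855266-88859203 on the plus strand and Gm5662 at chr12:89509084-89562433 on the minus strand. Zscan4c was annotated at chr7:11591071-11595896, Zscan4d at chr7:11746992-11751497 and Zscan4f at chr7:11983264-11988090. Gm2022, Tcstv1 and Tcstv3 were not matched. The coding sequences of Gm4027 and BB287469 (in the model whose length is that in the files) were identical over 435 bases. That of Gm8300 differed from Gm4027 at 12 positions, that of Gm5662 at 10, that of Eif1a at 28 and that of Eif1ax, the X-linked eIF1A gene, at 71. Positions 236 to 435, the end of the coding sequence, show how few bases can tell these genes apart. Capitals mark a base that differs from Gm4027.
Gm4027: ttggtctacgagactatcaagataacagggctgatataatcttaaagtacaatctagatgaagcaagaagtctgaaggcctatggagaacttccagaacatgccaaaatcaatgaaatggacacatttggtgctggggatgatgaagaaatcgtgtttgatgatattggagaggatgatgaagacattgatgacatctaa
BB287469: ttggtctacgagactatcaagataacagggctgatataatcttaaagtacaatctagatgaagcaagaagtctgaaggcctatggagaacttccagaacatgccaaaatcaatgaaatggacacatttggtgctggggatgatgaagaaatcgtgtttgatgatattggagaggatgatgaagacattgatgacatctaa
Gm8300: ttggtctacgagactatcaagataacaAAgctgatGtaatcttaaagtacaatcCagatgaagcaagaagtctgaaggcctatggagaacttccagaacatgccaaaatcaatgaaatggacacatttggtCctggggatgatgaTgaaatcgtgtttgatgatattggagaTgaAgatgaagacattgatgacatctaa
Gm5662: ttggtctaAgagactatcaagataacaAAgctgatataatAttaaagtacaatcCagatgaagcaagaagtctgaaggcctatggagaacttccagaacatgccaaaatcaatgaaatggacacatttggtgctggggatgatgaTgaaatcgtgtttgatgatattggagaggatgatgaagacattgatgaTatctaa
Eif1ax: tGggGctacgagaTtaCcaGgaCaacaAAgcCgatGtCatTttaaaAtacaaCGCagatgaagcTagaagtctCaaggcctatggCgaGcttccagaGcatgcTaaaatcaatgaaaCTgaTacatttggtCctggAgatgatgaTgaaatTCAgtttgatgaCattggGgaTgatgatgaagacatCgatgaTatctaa

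A read that fits several copies is divided among them by RSEM, so the level of 1 copy depends on that division. As a guide to the extent, every stretch of 50 bases of a transcript was looked up in the protein-coding gencode transcripts of all other genes. These held no model of Gm2022, Tcstv1 or Tcstv3, which can make the shares too low. They did hold Zscan4-ps2, the gene sharing most with Zscan4f (84.7%), which is not among the Zscan4 genes in the files. The shares thus describe the gencode transcripts and are no bound on the division by RSEM, which used RefSeq. Of these stretches, 98.4% of Gm4027 were found in another gene and 92.7% in BB287469. The share was 95.4% for Zscan4f, 81.3% for Zscan4c, 80.7% for Gm5662, 53.7% for BB287469, 47.2% for Zscan4d and 30.1% for Gm8300. Gm4027 thus has almost no stretch of its own, whereas most stretches of Gm8300 were not found in the genes searched. The coding sequences of Zscan4c and Zscan4f differed at 6 of 1521 bases, and each differed from Zscan4d at 35. The division stayed within the Zscan4 genes: the expected counts of the 6 Zscan4 genes in the files (Zscan4a to Zscan4f) summed to a whole number, within 0.05, in 20 of 20 libraries, while the 3 members alone did so in 3. For the 5 Eif1a-like members the sum was whole in 3 libraries, and for both Tcstv genes in 9. With Gm2016, another Eif1a-like copy, added, the Eif1a-like sum was whole in 1 library, and with Eif1a added as well in 4. Family sums are given beside the single genes, since they do not depend on the division among the members. They still depend on reads divided with genes outside the sum.

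**Figure D1:**
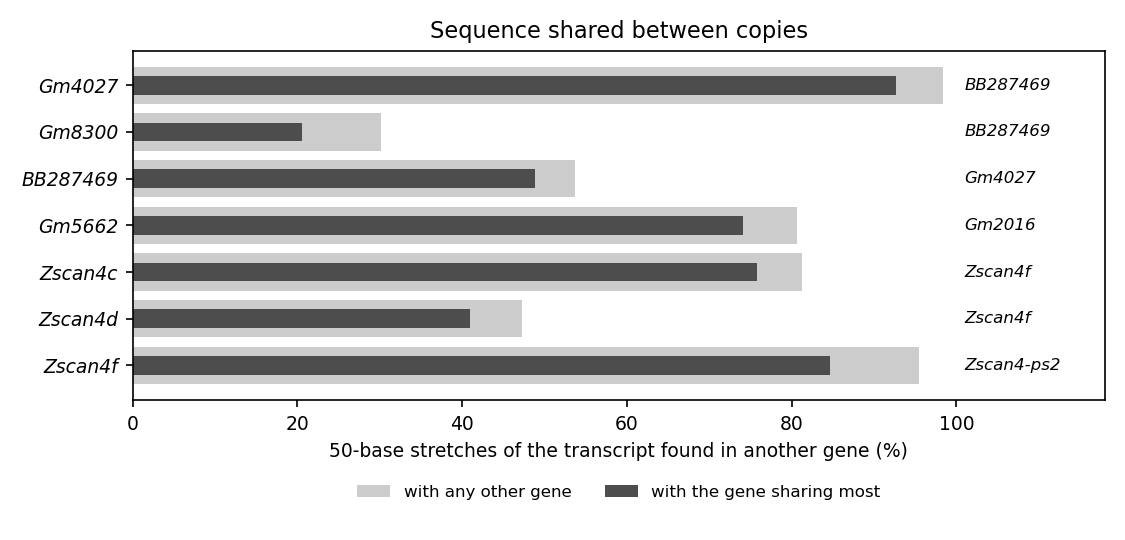
Share of 50-base stretches of each transcript found in another protein-coding gencode gene (x axis, %), for the 7 genes with an mm9 model. Wide bars count any other gene and narrow bars the gene sharing most, named at the right; Gm4027 reached 98.4% and Gm8300 30.1%.

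The start regions of the Zscan4 genes are nearly the same too. RefSeq promoter sequences (GRCm38.p6, from 250 bases before to 50 after the annotated start) were matched for 5 of the 10 genes. The 3 Zscan4 promoters share a stretch of 120 bases with TATAAA, given in capitals, in the sense orientation. The stretch lies at chr7:11005621-11005740 (plus strand) for Zscan4c, at chr7:11166164-11166283 (minus strand) for Zscan4d and at chr7:11397814-11397933 (plus strand) for Zscan4f.
Zscan4c: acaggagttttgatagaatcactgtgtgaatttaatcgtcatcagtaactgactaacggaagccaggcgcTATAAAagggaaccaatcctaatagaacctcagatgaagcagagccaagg
Zscan4d: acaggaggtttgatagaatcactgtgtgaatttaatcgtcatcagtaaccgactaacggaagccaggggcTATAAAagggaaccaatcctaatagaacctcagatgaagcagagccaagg
Zscan4f: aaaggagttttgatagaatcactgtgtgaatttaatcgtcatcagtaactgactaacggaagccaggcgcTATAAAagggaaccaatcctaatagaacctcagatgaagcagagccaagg
Zscan4c and Zscan4f differed at 1 of the 120 bases, Zscan4c and Zscan4d at 3, and Zscan4d and Zscan4f at 4. TATAAA was present on either strand in 13.6% of 32851 promoters and in the sense orientation in 8.3%. It was not found in the promoter windows of Gm4027 and BB287469.

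The libraries held between 21078995 and 37576638 expected counts. The cells carried the markers of ESCs: all 16 pluripotency genes listed were at 1 TPM (a level per transcript length, scaled to the library) or more in every library. Of the 20 differentiation and fibroblast markers, 10 reached that level everywhere and none was at 0 throughout. Their summed input level was 140 to 150 TPM in Tet1, 156 to 247 TPM in Tet2 and 226 to 394 TPM in Tet2ΔRBD, and its part in the differences between lines given here was not tested.

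In the inputs, the mean summed level of the 10 genes was highest in the Tet1 line, lower in Tet2ΔRBD and lowest in Tet2. Gm4027 alone did not follow this order, at 0 in both Tet1 inputs. The summed level was 29.88 and 23.80 TPM in the Tet1 inputs. It was 1.24, 1.77, 4.31 and 9.33 TPM in the Tet2ΔRBD inputs, and 0.69, 0.32, 1.31 and 0.75 TPM in the Tet2 inputs. The Tet1 inputs lay above every other input, and the ranges of Tet2 and Tet2ΔRBD overlapped at their ends. These inputs enter the Tet1 ratio that drew attention to Gm4027, so the Tet1 levels are described and not tested.

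The Zscan4 sum was 6.50 and 4.60 TPM in the Tet1 inputs, against 0.16 to 1.84 TPM in Tet2ΔRBD and 0.03 to 0.18 TPM in Tet2. The Tcstv sum was 18.16 and 15.38 TPM in the Tet1 inputs, against 0.69 to 3.52 TPM in Tet2ΔRBD and 0.16 to 0.51 TPM in Tet2. The Eif1a-like sum was 5.22 and 3.82 TPM in the Tet1 inputs, against 0.33 to 3.97 TPM in Tet2ΔRBD and 0.02 to 0.67 TPM in Tet2. Only for the Eif1a-like genes did a Tet2ΔRBD input, replicate 4 at 3.97 TPM, reach into the range of the Tet1 inputs. In mean CPM (expected counts scaled to the library total), the Tet1 inputs exceeded those of Tet2 by 42.0-fold for Zscan4, 40.6-fold for Tcstv and 18.0-fold for the Eif1a-like genes. The last was 45.1-fold without Tet2 replicate 3. Against the Tet2ΔRBD inputs the folds were 7.05, 9.39 and 2.87, and without Tet2ΔRBD replicate 4 they were 12.3, 14.4 and 5.02. Against replicates 3 and 4 of Tet2ΔRBD, of the same library set, they were 4.34, 6.11 and 1.62, and against those of Tet2 they were 28.4, 33.9 and 10.5.

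Gene by gene, both Tet1 inputs lay above all 8 other inputs for 8 of the 10 genes, against 7.77% of the 19013 genes with a count in any of these inputs. The 8 genes also differed by at least 4-fold in mean CPM, against 1.13% of all genes. Within the library set shared with Tet1 the same 8 genes did not overlap (25.2% of all genes), and 6 of them differed by at least 4-fold (1.58%). Gm8300 and Gm2022 were under 4-fold there. The exceptions were Gm5662 and Gm4027. Gm5662 had 25.55 and 40.54 expected counts in the Tet1 inputs and 43.22 in replicate 4 of Tet2ΔRBD. Gm4027 was at 0 in both Tet1 inputs, which allows up to 0.132 CPM at 3 counts per library, while BB287469, which has the same coding sequence, had 43.60 and 17.30 expected counts there. BB287469 was at 0 in all 4 Tet2 inputs. With 3 counts per library as the floor for these, its level in the Tet1 inputs was 12.2-fold higher. The floor of 3 counts covers counting error and not the division of reads among copies, so 12.2-fold is not a lower bound.

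**Figure D2:**
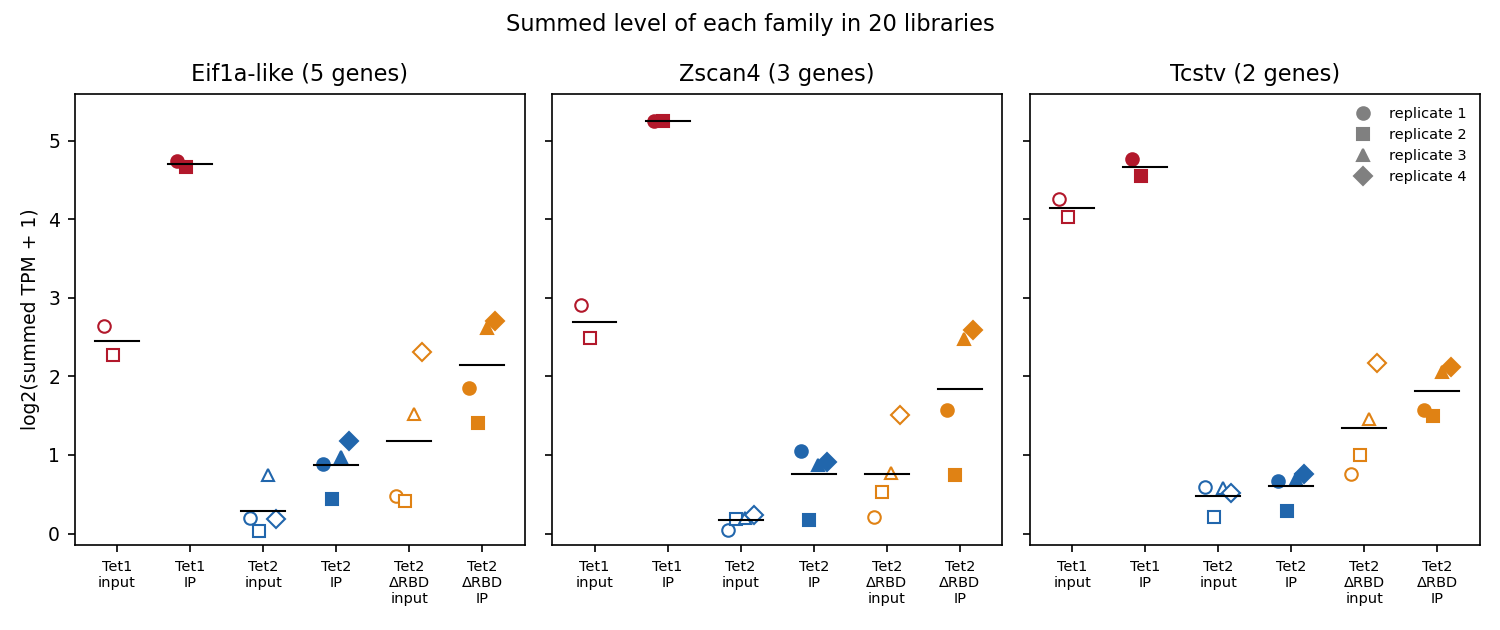
Summed TPM of each family in 20 libraries, as log2(TPM + 1) (y axis), by line and by input (open) or IP (filled). Marker shapes are replicates and bars are group means; in the IPs the Tet1 libraries lie above all others in each panel, and among the inputs they do so for Zscan4 and Tcstv, with the highest Tet2ΔRBD input reaching the lower Tet1 input for the Eif1a-like genes.

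Other genes of the same state were read from a list of 65 symbols, of which 44 were in the files and 40 had a count in any input. Both Tet1 inputs lay above all 8 others for 20 of the 40, against 7.77% of all genes. All 20 differed by at least 4-fold in mean CPM, against 1.13% of all genes. Of the 20, 4 had fewer than 10 expected counts in the Tet1 inputs. Dux had 28.98 and 19.62 expected counts in the Tet1 inputs and at most 12.25 in any other input, with a mean CPM 10.1-fold higher. Among the remaining Zscan4 copies, Zscan4a was 9.43-fold and Zscan4b 19.1-fold higher in the Tet1 inputs. Zscan4e was 11.8-fold higher in the mean, although replicate 4 of Tet2ΔRBD reached 0.81 TPM and the lower Tet1 input 0.79 TPM. Not every listed gene differed: Zfp352, a zinc finger gene of the early embryo, had a mean CPM 1.18-fold that of the other inputs. Of the 27 known regulators in the files, 3 (Dppa2, Dppa4 and Ehmt2) lay above all 8 other inputs, against 7.77% of all genes, and none by 4-fold. Nothing is read from this count. The part of differing cell states, clones and library sets in these levels was not tested.

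**Figure D3:**
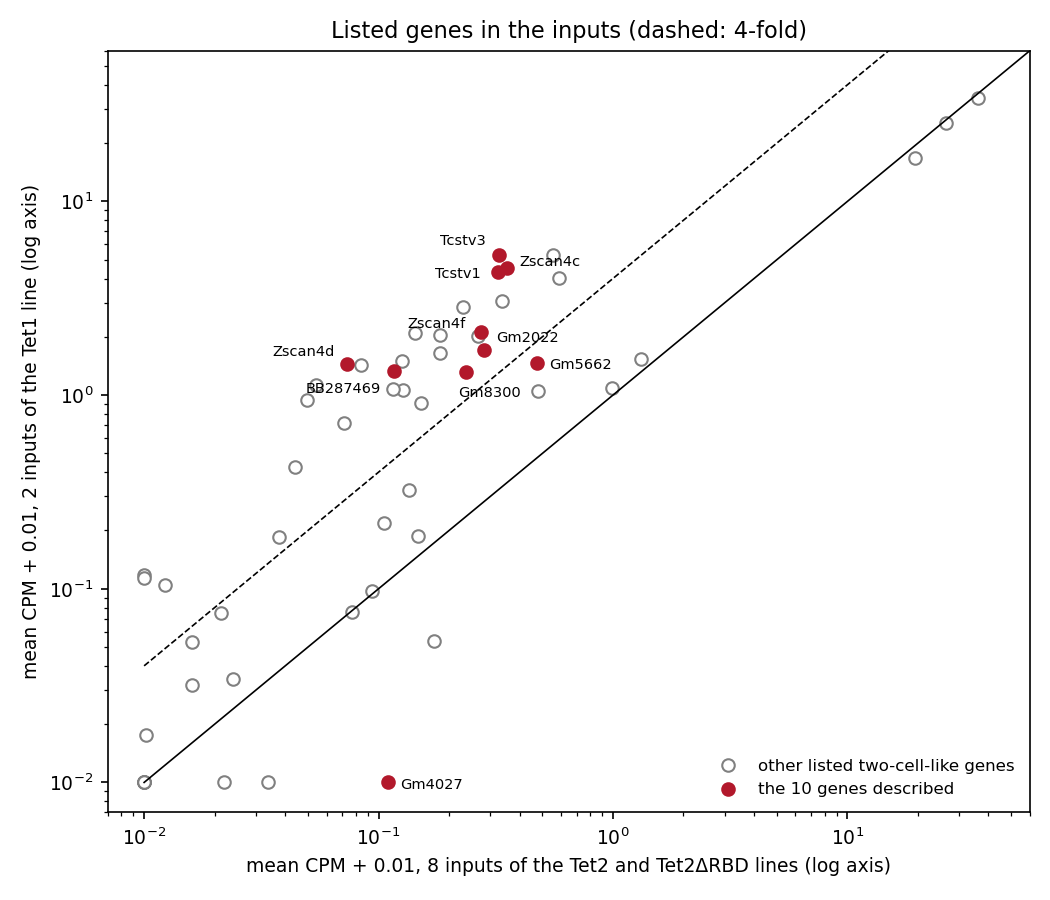
Mean CPM + 0.01 in the 2 inputs of the Tet1 line (y axis) against that in the 8 inputs of the other lines (x axis), both on log axes, for the 10 genes (filled) and the other listed two-cell-like genes (open). The solid line marks equal levels and the dashed line 4-fold; 8 of the 10 genes lie above the dashed line, Gm5662 lies below it, and Gm4027 is at 0 in the Tet1 inputs.

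Between the inputs of Tet2ΔRBD and Tet2 the genes were too low for the test across all genes: none of the 10 reached 1 CPM in at least 2 of these 8 libraries. In that test no gene was called (0.00% of 13178, edgeR quasi-likelihood test with Benjamini-Hochberg adjustment), 248 had an unadjusted p under 0.05, DESeq2 called 9 and limma on log2(TPM + 1) none. With the replicate number as a block, 5 genes were called and 1648 had an unadjusted p under 0.05, again with no member tested. Without the filter on low counts, all 10 genes had a positive fitted log2 ratio (Tet2ΔRBD over Tet2, median 2.84), 5 had an unadjusted p under 0.05 and none passed after adjustment. Over all 18757 genes in that fit the median was 0.04, and 451 had an unadjusted p under 0.05. The members are copies that share reads, so their values are not independent of each other. The inputs of both lines did not overlap for 1 gene, Tcstv3, at 0.39, 0.74, 0.58 and 2.03 TPM against 0.15, 0, 0.26 and 0.07 TPM. The same held for 0.575% of 18770 genes, and for 0.165% with a difference of at least 4-fold, which Tcstv3 also reached. Gm2022, Zscan4c and Tcstv3 were higher in Tet2ΔRBD at each of the 4 replicate numbers, against 9.63% of all genes. The summed Tcstv inputs did not overlap between the lines, whereas those of the other families did.

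In the Tet1 line, IP exceeded input for all 10 genes in both replicates. This is described without reading anything from the count, since 48.0% of the 16257 genes above 0 in both Tet1 IPs did the same and Gm4027 was chosen for it. Ratios are given as log2((IP TPM + 1)/(input TPM + 1)) for each pair. The highest were those of Zscan4f (2.78 and 2.89) and Gm4027 (2.77 and 2.70). Over the 12179 genes at a mean of 1 TPM or more in the Tet1 IPs or inputs, the median ratio was 0.09, with 12 genes above Zscan4f and 18 above Gm4027. Zscan4c (1.79 and 2.15), Gm8300 (1.58 and 1.90), Gm5662 (1.96 and 1.42), Gm2022 (mean 1.61) and Zscan4d (1.40 and 1.78) formed a middle group with overlapping pairs. Tcstv1 (0.51 and 0.60), BB287469 (0.06 and 0.92) and Tcstv3 (0.47 and 0.41) were lowest.

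Zscan4f had 1.60 and 1.73 TPM in the Tet1 inputs and 16.87 and 19.22 TPM in the IPs. Zscan4c had 3.73 and 1.97 TPM in input and 15.35 and 12.17 TPM in IP, and Zscan4d 1.17 and 0.90 TPM in input and 4.72 and 5.52 TPM in IP. In the inputs Zscan4c was thus the higher of the pair Zscan4c and Zscan4f, and in the IPs Zscan4f was. These 2 genes differ at few bases, as shown above, so their order rests on the division of reads. The sum of all 6 Zscan4 copies, within which the reads were divided, was 11.39 and 7.51 TPM in input and 52.78 and 51.16 TPM in IP, a log2 ratio of 2.37 ± 0.35 (SD, n = 2).

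The ratio of Gm4027 was also bound to its near-identical copy. Gm4027 had 88.19 and 87.50 expected counts (5.82 and 5.49 TPM) in the Tet1 IPs and none in the inputs. Taking 3 counts per library for the inputs gave 26.9-fold in CPM. That floor does not cover the division of reads with BB287469, so 26.9-fold is not a lower bound. The sum of both genes was 4.28-fold higher in the Tet1 IPs in mean CPM. BB287469 had 45.77 and 61.04 expected counts in the same IPs and 43.60 and 17.30 in the inputs. The log2 ratio was 2.73 ± 0.05 (SD, n = 2) for Gm4027, 0.49 ± 0.61 for BB287469 and 2.09 ± 0.46 for their sum. With a pseudocount of 0.1 in place of 1, Gm4027 moved to 5.85.

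Most stretches of Gm8300 were not found in the genes searched. It had 1.15 and 0.86 TPM in the Tet1 inputs and 5.43 and 5.96 TPM in the IPs. Gm2022 had 1.72 and 0.97 TPM and then 6.71 and 5.47 TPM, and Gm5662 had 0.87 and 1.40 TPM and then 6.29 and 5.42 TPM. The 3 genes were alike in their levels in IP. Tcstv1, in contrast, was already at 8.67 and 6.83 TPM in the inputs and had 12.77 and 10.83 TPM in the IPs. Tcstv3 had 9.49 and 8.55 TPM in input and 13.52 and 11.67 TPM in IP. Parents of the Eif1a-like family had levels in IP close to input: Eif1ax had a log2 ratio of -0.15 ± 0.04 (SD, n = 2) and Eif1a of 0.19 ± 0.18 in the Tet1 line.

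**Figure D4:**
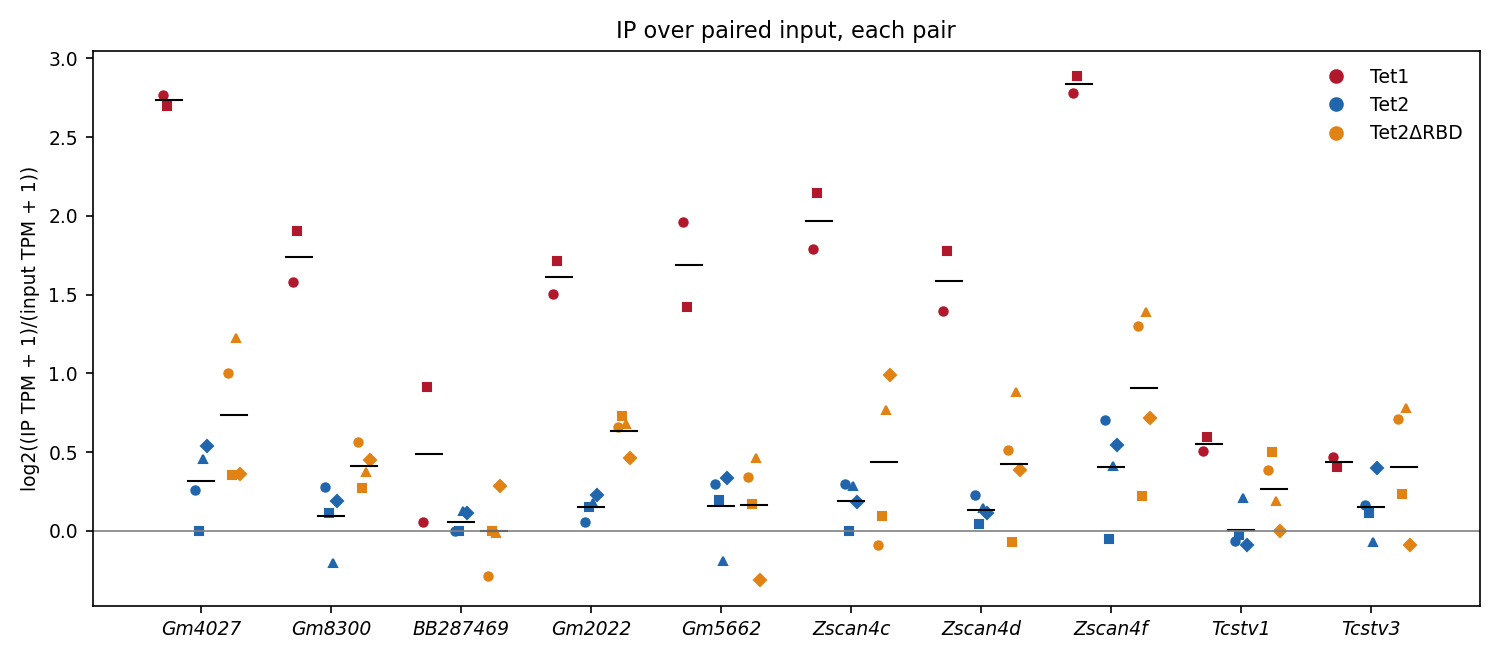
log2((IP TPM + 1)/(input TPM + 1)) of each IP and input pair (y axis) for the 10 genes, coloured by line, with marker shapes for replicates 1 (circle), 2 (square), 3 (triangle) and 4 (diamond) and bars for the mean of a line. Gm4027 and Zscan4f stand highest in Tet1, at means of 2.73 and 2.83, and the Tet2 and Tet2ΔRBD values lie closer to 0.

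By family, the order of the ratios was Zscan4, then Eif1a-like, then Tcstv in the mean of each line. For Zscan4 the log2 ratio of the summed TPM was 2.55 ± 0.30 (SD, n = 2) in Tet1, 0.59 ± 0.43 (n = 4) in Tet2 and 1.09 ± 0.64 (n = 4) in Tet2ΔRBD. For the Eif1a-like genes it was 2.25 ± 0.20, 0.58 ± 0.33 and 0.96 ± 0.41 in the same order of lines. For Tcstv it was 0.52 ± 0.01, 0.13 ± 0.08 and 0.47 ± 0.37. Centred on the median of expressed genes, the Tcstv ratio in Tet2 turned to -0.10. Zscan4 and the Eif1a-like genes differed by less than either SD in Tet2 and Tet2ΔRBD. The pseudocount of 1 TPM exceeds most levels in the Tet2 and Tet2ΔRBD lines and pulls their ratios toward 0. With a pseudocount of 0.1 the Zscan4 ratios were 2.73, 1.71 and 1.86 in Tet1, Tet2 and Tet2ΔRBD, and the Eif1a-like ratios 2.46, 1.71 and 1.59, so that the order of these families was no longer seen in Tet2. Of the single genes, only Zscan4f and Gm4027 had a Tet2 mean above the median of 0.26 over the 12376 genes at 1 TPM or more in that line. As ratios of mean CPM, with nothing added, the Zscan4 sum was 6.02-fold higher in IP in Tet1, 5.00-fold in Tet2 and 3.43-fold in Tet2ΔRBD. The Eif1a-like sum was 4.64-fold, 2.66-fold and 1.89-fold higher, and the Tcstv sum 1.36-fold, 1.20-fold and 1.34-fold. The Tet2 value of the Eif1a-like sum was 6.49-fold without replicate 3, whose input held 20.77 expected counts against at most 4.68 in the others, which places it above the Zscan4 value.

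In the Tet2 line the counts were small. The 40 values of the 10 genes in the Tet2 IPs ran from 0 to 25.91 expected counts, and 19 of the 40 input values were 0. Zscan4f had 25.91, 3.30, 10.59 and 16.06 expected counts in IP against 1.00, 6.00, 0 and 0 in input. It was higher in IP in 3 of the 4 pairs, with replicate 2 the exception. Zscan4c had 10.81, 0, 14.17 and 14.84 in IP against 0, 0, 4.49 and 7.29 in input, and Zscan4d 6.87, 1.00, 5.34 and 3.20 against 0, 0, 1.24 and 0. Gm4027 had 5.49, 0, 7.91 and 8.17 in IP against 1.08, 0, 1.24 and 0 in input. IP replicate 2 was the lowest of the 4 for each of these genes.

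The remaining Eif1a-like genes were as low in the Tet2 IPs, at 2.08 to 9.92 expected counts for Gm8300, 3.37 to 8.13 for Gm2022 and 5.43 to 12.71 for Gm5662. BB287469 had 2.96 and 2.86 expected counts in IP replicates 3 and 4 and was at 0 in the other 6 Tet2 libraries, too few for a ratio. Tcstv1 had 5.00, 2.00, 6.00 and 4.34 in IP against 5.67, 3, 3.20 and 5.00 in input, with overlapping ranges. Over all pairs of values, IP TPM was above input in 29 of 40, below in 7 and equal in 4. The 40 values come from copies that share reads and are not replicates. Nothing is read from this count, since its share over all genes was not taken and the median log2 ratio of 12376 genes was 0.26 in this line. IP was above input in every replicate for Gm2022 and Zscan4d, 2 of the 7 members above 0 in every Tet2 IP, against 42.7% of 15606 genes.

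None of the 10 genes passed the test of Tet2 IP against input (edgeR quasi-likelihood test with a block for each pair), in which 14.6% of 13710 genes were called higher and 18.5% lower in IP. All 10 met the filter on low counts through the Tet1 libraries, and 6 did so among the Tet2 and Tet2ΔRBD libraries alone, all but Gm4027, BB287469, Zscan4d and Tcstv1. Fitted log2 ratios were positive for 9 of 10, with a median of 1.72 against 0.00 over all genes tested, and of 1.58 without BB287469, whose inputs were all 0. In a fit of the Tet2 and Tet2ΔRBD libraries alone, the 6 genes had a median of 1.34 and none was called. Of these, Gm2022, Gm8300 and Zscan4c reached 1 CPM outside Tet1 only in IP replicates 3 and 4 of Tet2ΔRBD. They thus met that filter through IPs, and nothing is read from these medians. For Zscan4f the fitted ratio was 2.56 (SE 1.05, adjusted p = 0.082), for Zscan4c 1.58 (SE 0.65, adjusted p = 0.087) and for Zscan4d 3.17 (SE 1.46, adjusted p = 0.12). For Gm4027 it was 2.79 (SE 1.36, adjusted p = 0.14), and for Tcstv1 -0.28 (SE 0.44, adjusted p = 0.66). At an unadjusted p under 0.05 there were 2 genes, Zscan4c and Zscan4f, against 6168 of all 13710 genes tested. DESeq2 called 3 of the 10 higher (Zscan4c, Zscan4d and Zscan4f), against 2445 of all 13710. With limma on log2(TPM + 0.1) 3 were called higher (Gm2022, Gm4027 and Zscan4f), against 4815 of all 13710. With limma on log2(TPM + 1) none was called, against 4801 called higher over all genes. Of the members called, Zscan4d and Gm4027 entered the tests through the Tet1 libraries. Leaving out Tet2 replicate 2 brought Zscan4f to 4.98 (adjusted p = 0.016), and leaving out Tet2ΔRBD replicate 1, 2 or 4, which share the estimate of the spread, gave 1 call each (Zscan4f, Gm2022 and Gm4027, adjusted p = 0.049, 0.047 and 0.042).

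In the Tet2ΔRBD line the levels were higher, at 0 to 78.12 expected counts in IP. Zscan4f had 45.58, 17.51, 63.63 and 74.91 expected counts in IP against 0, 8.53, 6.40 and 29.38 in input, and was higher in IP in every pair. Gm4027 had 16.48, 6.60, 20.89 and 26.43 in IP against 0, 0, 0 and 14.85 in input. Gm2022 had 26.59, 31.17, 45.29 and 44.07 against 5.32, 1.02, 18.83 and 20.51. Its counts did not overlap, whereas its levels did, with IP replicate 2 at 0.69 TPM and input replicate 4 at 0.75 TPM. Gm8300 had 15.22, 10.84, 28.55 and 36.03 against 0, 1.08, 16.47 and 15.47. These 4 genes were above input in every replicate, of the 8 members above 0 in every Tet2ΔRBD IP, against 30.0% of 15442 genes. Zscan4c had 3.36, 16.12, 57.39 and 78.12 in IP against 6.31, 11.22, 20 and 17.22 in input, and was above input in replicates 2, 3 and 4. Zscan4d, at 14.66, 0, 27.22 and 23.01 against 0, 2.19, 0 and 8.30, was lower in IP only in replicate 2. In TPM, Gm5662 and Tcstv3 were above input in replicates 1 to 3 and below it in replicate 4.

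Gm2022 was the 1 gene to pass the test of Tet2ΔRBD IP against input (fitted log2 ratio 1.55, SE 0.46, adjusted p = 0.039, edgeR), in which 7.40% of 13710 genes were called higher and 12.1% lower. The median fitted ratio of the 10 was 1.18, against -0.01 over all genes tested. Gm4027, BB287469, Zscan4d and Tcstv1 did not meet the filter without the Tet1 libraries. Gm2022, Gm8300 and Zscan4c reached 1 CPM outside Tet1 only in IP replicates 3 and 4 of Tet2ΔRBD, which are among the IPs tested. Nothing is therefore read from this median. Zscan4f (2.05, SE 0.69, adjusted p = 0.059), Zscan4d (2.31, SE 0.82, adjusted p = 0.070) and Gm4027 (2.26, SE 0.83, adjusted p = 0.088) missed the threshold and had an unadjusted p under 0.05. Over all genes tested, 4858 of 13710 had an unadjusted p under 0.05. Zscan4c stood at 0.95 (SE 0.44, adjusted p = 0.15), Tcstv3 at 0.48 (SE 0.35, adjusted p = 0.35) and BB287469 at -0.42 (SE 0.91, adjusted p = 0.77). The call of Gm2022 was lost without the block (adjusted p = 0.51), with replicates 3 and 4 merged (0.064) and without Tet2 replicate 4 (0.055), Tet2ΔRBD replicate 1 (0.099) or Tet2ΔRBD replicate 3 (0.082). It was also lost in the fits of the Tet2 and Tet2ΔRBD libraries alone, with the filter (0.068) and without it (0.082), in which no member was called. Outside Tet1, Gm2022 reached 1 CPM only in IP replicates 3 and 4 of Tet2ΔRBD (1.80 and 1.67 CPM). There it met the filter through the IPs being tested. DESeq2 called 4 of the 10 genes higher, against 1761 of all 13710, and limma on log2(TPM + 1) called 6, against 3224 of all 13710. Leaving out Tet2ΔRBD replicate 4, the pair with the highest input, gave 4 calls: Gm2022, Gm4027, Zscan4d and Zscan4f. Over all genes, 1226 of 13682 were called higher there. Of the 4 members, Gm4027 and Zscan4d met the filter through the Tet1 libraries. There were 3 calls without Tet2ΔRBD replicate 2, against 1135 of 13660 genes called higher. Without Tet2 replicate 2 there were 2, against 1439 of 13692.

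**Figure D5:**
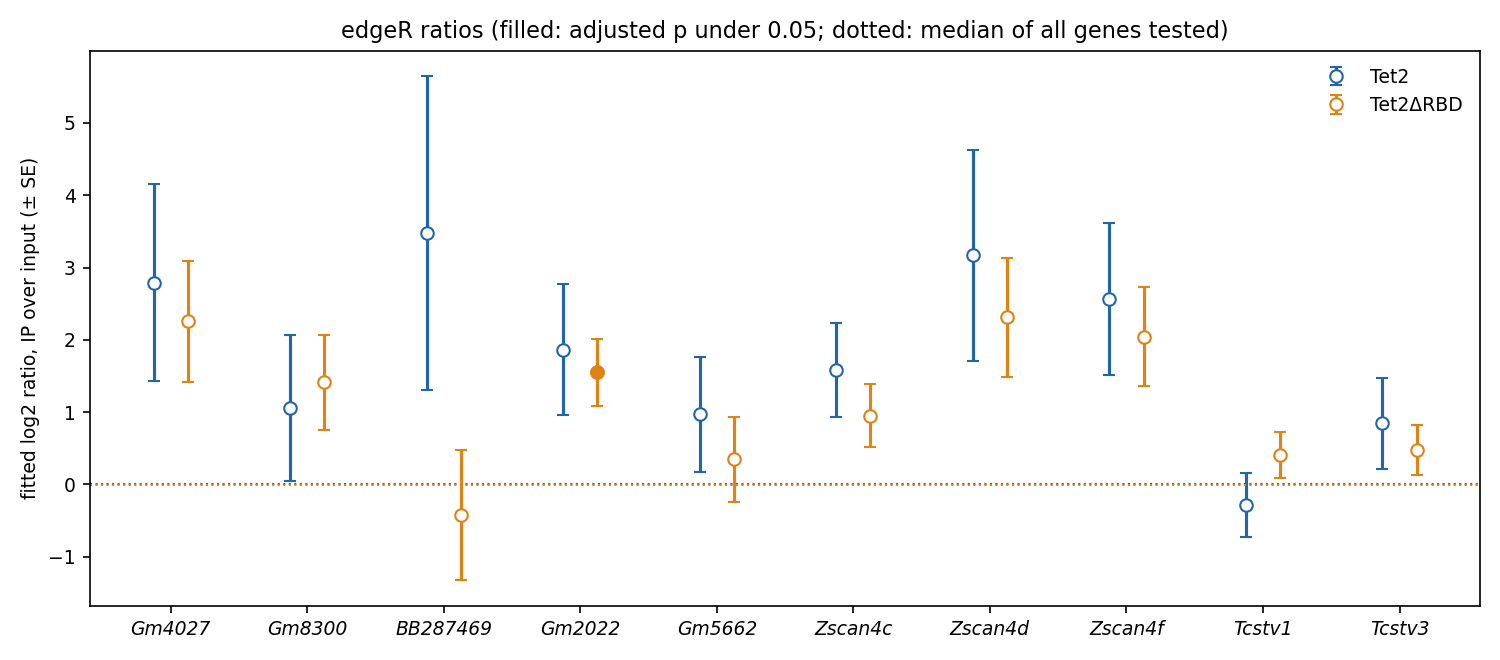
Fitted log2 ratio of IP over input (y axis, ± SE) from the edgeR fit for the 10 genes in Tet2 and Tet2ΔRBD; dotted lines are the medians of all genes tested and a filled point has an adjusted p under 0.05. Gm2022 in Tet2ΔRBD, at 1.55, is the filled point, and the error bars of Tet2 are wider than those of Tet2ΔRBD for every gene.

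The IP effect of Tet2 was not shown to differ from that of Tet2ΔRBD for any of the 10 genes (edgeR test of the difference, 0.0219% of 13710 genes called). No member had an unadjusted p under 0.05, against 416 of 13710 genes, and DESeq2 and limma at either pseudocount called no member. The difference, Tet2 minus Tet2ΔRBD, was 0.53 (SE 1.40) for Gm4027, 0.52 (SE 1.25) for Zscan4f, 0.63 (SE 0.77) for Zscan4c and 0.32 (SE 0.85) for Gm2022 on the log2 scale. The sign changed with the tool and the replicates. Of the 10 genes, 8 had a positive difference in edgeR (median 0.53) and 1 did with limma on log2(TPM + 1) (median -0.28). In that limma fit 2 of the 10 had an unadjusted p under 0.05, against 452 of 13710 genes. A positive difference was seen for 3 with limma on log2(TPM + 0.1) (median -0.54) and for 2 without Tet2ΔRBD replicate 4 (median -0.16). Errors of this size leave room for a difference of 2-fold or more in either direction for Gm4027 and Zscan4f. In level, the IPs of Tet2ΔRBD exceeded those of Tet2 by 4.09-fold for the Zscan4 sum, 4.46-fold for the Eif1a-like sum and 4.80-fold for the Tcstv sum in mean CPM. The inputs differed by 5.96-fold, 6.27-fold and 4.33-fold in the same direction, and by 3.42-fold, 3.59-fold and 2.82-fold without Tet2ΔRBD replicate 4. Without Tet2 replicate 3 the Eif1a-like inputs differed by 15.7-fold.

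Among the 21 other two-cell-like genes tested, 2 were higher and 1 lower in Tet2 IP, and 1 was higher and 1 lower in Tet2ΔRBD IP. Over all genes these shares were 14.6% and 18.5% in Tet2 and 7.40% and 12.1% in Tet2ΔRBD. The median fitted log2 ratio of the 21 was 0.63 in Tet2, against 0.00 over all genes tested, and 0.43 in Tet2ΔRBD, against -0.01. Part of the 21, among them Dux, Usp17l5 and Gm5039, met the filter on low counts through the Tet1 libraries. Nothing is therefore read from these medians. In Tet2, Zscan4a had a fitted log2 ratio of 5.11 (SE 1.30, adjusted p = 0.020, edgeR) with all 4 inputs at 0 and IPs of 2.07, 0, 7.07 and 11.47 expected counts. With 3 counts per library in place of these inputs it was 1.75-fold higher in mean CPM. That is not a lower bound, since the Zscan4 copies share reads. Outside Tet1, Zscan4a reached 1 CPM only in IP replicates 3 and 4 of Tet2ΔRBD (1.52 and 1.75 CPM). Zfp352 was higher at 0.65 (SE 0.21, adjusted p = 0.033) and Ddit4l lower at -0.45 (SE 0.13, adjusted p = 0.025). In Tet2ΔRBD, Gm5039 was higher at 1.68 (SE 0.46, adjusted p = 0.030), and Zscan4b was lower at -4.83 (SE 1.14, adjusted p = 0.045), on 14.14 expected counts in input replicate 3 and 0 in the other 7 libraries of that line. Zscan4b reached at most 0.594 CPM outside Tet1 and was tested through the Tet1 libraries, and its call was lost in 10 of 15 alternatives. Gm5039 reached 1 CPM in 1 library outside Tet1 (1.02 CPM) and was tested through the Tet1 libraries as well. The calls of Zscan4a and Gm5039 were lost in 5 alternatives each, that of Zfp352 in 8 and that of Ddit4l in 7. None of the 21 was called in the test of the difference between the IP effects. Of the 27 regulators, 7 were higher and 3 lower in Tet2 IP, with a median of 0.29, and 1 (Tet1) higher and 3 (Dppa2, Dppa3 and Patl2) lower in Tet2ΔRBD IP, with a median of 0.22. Max and Dppa2 were the other lower genes in Tet2. Smchd1, a chromatin repressor, was among the higher in Tet2 at 1.31 (SE 0.37, adjusted p = 0.020), and Dppa3, a maternal factor, among the lower at -1.25 (SE 0.20, adjusted p = 0.0014). Dppa2 was lower in Tet2ΔRBD at -0.89 (SE 0.11, adjusted p = 0.00088). Among the pluripotency factors, Nanog was lower in IP in Tet2 (-1.19, SE 0.11, adjusted p = 1.2e-04) and in Tet2ΔRBD (-1.02, SE 0.11, adjusted p = 5.2e-04), and Dppa5a was lower in Tet2ΔRBD (-0.81, SE 0.23, adjusted p = 0.034). Klf2 was higher in Tet2 IP (1.14, SE 0.10, adjusted p = 9.9e-05) and was the 1 listed gene whose IP effect differed between the lines (1.33, SE 0.14, adjusted p = 0.012). That last call was lost in 8 of 16 alternatives, among them the fit without the block, that with replicates 3 and 4 merged and that of the Tet2 and Tet2ΔRBD libraries alone with the filter, with a difference of 1.26 to 1.40 over all 16 and adjusted p up to 1.00. The calls of Nanog held in all 16 alternatives, and that of Dppa5a in Tet2ΔRBD was lost in 10. Eif1ax was lower in Tet2 IP at -0.71 (SE 0.21, adjusted p = 0.025), as was Eif1 at -0.53 (SE 0.13, adjusted p = 0.013), with the call of Eif1ax lost in 8 of 16 alternatives and that of Eif1 in 5, and none of the 5 genes related to eIF1 and eIF1A was called in Tet2ΔRBD.

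The families moved together from library to library. Across the 20 libraries, log2(summed TPM + 1) of Zscan4 correlated with that of the Eif1a-like genes at a Pearson r of 0.97 and with that of Tcstv at 0.92. Without the 4 Tet1 libraries the values were 0.93 and 0.85 over 16. These points share lines, pairs and library sets, so the correlations describe these libraries. Outside the 10 genes and among 12089 genes at a mean of 1 TPM or more, Gm2016, another copy of the Eif1a-like group, followed the Zscan4 sum most closely (r = 0.99), and then Gm4340, Gm13043, G530011O06Rik and Gm7102 (0.96, 0.95, 0.94 and 0.94). The Tcstv sum was followed by Gm13043, A430089I19Rik, B020031M17Rik, Gm7102 and Gm4340 (0.98, 0.98, 0.98, 0.96 and 0.94). Gm4027 was matched less closely, by Senp8, Olfr613, Rpp38, Zfp488 and Gm2016 (0.88, 0.87, 0.87, 0.86 and 0.86). Of these 5, Gm2016 alone had lower means in the other IPs (0.68 TPM) than in the Tet1 inputs (1.64 TPM), the pattern of the family sums.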

How the data were processed

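RNA of 20 RIP-Seq libraries from 3 knock-in lines was measured, as IP and input. The authors checked reads with FastQC and AfterQC, removed rRNA and tRNA reads with Bowtie2, trimmed with Trimmomatic, and quantified with RSEM against mm9 and the RefSeq transcriptome, which divides reads among copies. The deposited expected counts are estimated and not normalized, and the deposited TPM column had 1 added by the authors, which was subtracted here. Groups and replicate numbers are those of the labels. The labels do not say whether replicates came from separate cultures, so p-values cover only the spread between these samples, which may be technical.

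Expected counts were rounded and tested with edgeR 4.0.16 in R 4.3.3 (TMM, quasi-likelihood, 1 CPM in at least 2 libraries, Benjamini-Hochberg adjustment over all genes). Every IP was blocked with its own input, and each line had its own IP term. The SE was taken as |log2 ratio|/√F. Alternatives were DESeq2 1.42.0, limma 3.58.1, other filters and blocks, merged replicates and leaving out each replicate. The family folds with each replicate left out, the fits on Tet2 and Tet2ΔRBD libraries only and the listed genes under each alternative were added after seeing the data. Deviations of IP and input of the same number correlated at 0.60 to 0.85 in Tet2 and 0.57 to 0.84 in Tet2ΔRBD. Inputs of the same number in both lines correlated at 0.69 to 0.89. The numbers were taken to pair the samples, although the correlations did not always tell replicates 3 and 4 apart. IP replicate 4 correlated with input replicate 3 at 0.77 in Tet2 and 0.68 in Tet2ΔRBD, against 0.75 and 0.57 with input replicate 4. IP replicate 3 correlated more with its own input, at 0.77 against 0.75 in Tet2 and 0.70 against 0.58 in Tet2ΔRBD. The tests were also run on simulated counts without pair or library set effects, which does not show how they behave on these data. Library totals of 21078995 to 37576638 set the precision: 3 counts are the floor, which covers counting error only and not the division of reads among copies.

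The members and gene lists were chosen with earlier results of these data known. Named are all 10 members, the listed genes with the largest ratios past the threshold (up to 5 for each comparison), the other Zscan4 copies, Eif1a and Eif1ax, and the 5 genes most correlated with each pattern. Genes of counts of 5 or fewer were named after their values were seen, as were the most contrasting input levels (Dux, Zfp352). Sequences come from gencode vM1 transcripts (mm9) and a RefSeq promoter table (GRCm38.p6). The deposited FPKM values were not used here. Plots were drawn with matplotlib 3.10.9.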

Additional observations from a re-analysis of the deposited data

How the results depend on the processing

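The number of members past the threshold changed with the replicate block, the tool and the filter. With Tet2 IP against input, 0 of 10 members were called in the fit reported. DESeq2 and limma on log2(TPM + 0.1) called 3 members each, against 2445 and 4815 of 13710 genes called higher. Leaving out 1 replicate gave 0 to 1 members, and the other alternatives gave 0. With Tet2ΔRBD IP against input, 1 member was called. DESeq2 called 4, against 1761 of 13710 genes called higher. The limma fits called 6 (log2(TPM + 1)) and 5 (log2(TPM + 0.1)), against 3224 and 3370 of 13710. The fit with no filter on low counts called 2, against 1039 of 19601, and leaving out 1 replicate gave 0 to 4. The fit with no replicate block called 0, as did merging replicates 3 and 4 and, added after seeing the data, both fits on the Tet2 and Tet2ΔRBD libraries only. The difference between Tet2 and Tet2ΔRBD had 0 members called under every alternative run. Over all genes, omitting the block lowered the calls from 4540 to 375 in Tet2 and from 2674 to 46 in Tet2ΔRBD, and merging replicates 3 and 4 gave 1060 in Tet2ΔRBD. Leaving out 1 replicate gave 2690 to 5376 calls in Tet2, 795 to 3419 in Tet2ΔRBD and 0 to 14 for the difference, against 3 in the fit reported, 29 by DESeq2, 6 without the filter and 0 without the block, with replicates merged, or on the Tet2 and Tet2ΔRBD libraries only. In Tet2ΔRBD the calls were 1235 without its replicate 1 and 795 without its replicate 3, in Tet2 2690 without its replicate 1, and 1650 in Tet2ΔRBD on these libraries with no filter. Between the inputs, a replicate block called 5 genes and DESeq2 9, against 0, and no member met the filter there; with the block and no filter (added) it called 40 genes and 0 members.

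For the family sums, a pseudocount of 0.1 moved the Eif1a-like log2 ratio to 2.46, 1.71 and 1.59 in Tet1, Tet2 and Tet2ΔRBD, the Zscan4 ratio to 1.71 in Tet2 and 1.86 in Tet2ΔRBD, and the Tcstv ratio to 0.54 in Tet1 and 0.34 in Tet2. On CPM + 1 the Tet1 ratios were 2.05 for Eif1a-like and 0.41 for Tcstv, and centred on the median of expressed genes the Tcstv ratio was 0.44 in Tet1. Centring turned the Tcstv ratio in Tet2 to -0.10. In IP against input, single genes changed sign in 3 of 312 cases, none past the threshold: BB287469 in Tet2ΔRBD ran from -1.30 to 0.38 when 1 replicate was left out (positive without Tet2ΔRBD replicate 1), and Tcstv1 in Tet2 was 0.0074 (log2(TPM + 1)) and 0.016 (log2(TPM + 0.1)) by limma. In the difference between Tet2 and Tet2ΔRBD, single genes changed sign in 24 of 156 cases, none past the threshold. By limma on log2(TPM + 1) the difference was -0.48 for Gm2022, -0.42 for Gm4027, -0.0051 for Gm5662, -0.26 for Tcstv3, -0.25 for Zscan4c, -0.30 for Zscan4d and -0.51 for Zscan4f, and on log2(TPM + 0.1) -0.73 for Gm2022, -1.10 for Gm4027, -0.10 for Tcstv3, -0.64 for Zscan4d and -0.45 for Zscan4f. DESeq2 gave -1.31 for Gm4027. Leaving out 1 replicate, it ran from -0.13 to 0.96 for Gm2022, -3.90 to 1.07 for Gm4027, -0.016 to 2.04 for Gm5662, -0.99 to 1.99 for Gm8300, -0.20 to 1.17 for Tcstv3, -0.56 to 2.23 for Zscan4d and -0.20 to 2.95 for Zscan4f. The cause of these changes was not tested. Levels near 0 in the Tet2 inputs limit every ratio there.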
